A study of Mus musculus with 1646 samples.

Results

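Small leucine-rich proteoglycans were followed through the fibroblasts and mural cells of the mouse colon. The genes were chosen by name, as the rows of the count table whose Ensembl identifier carries the symbol *Dcn*, *Lum*, *Bgn*, *Ogn*, *Fmod*, *Prelp*, *Aspn*, *Omd*, *Podn* or *Ecm2* in the GENCODE vM21 annotation. All 10 symbols were found among the 46517 genes of the table, and together they held 1.025% of the counts on genes. All 10 passed the filter on low counts in the comparison of fibroblasts with mural cells.

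The series holds single-cell transcriptomes of 1646 colon cells of male mice aged 10 to 20 weeks, made by SmartSeq2, a full-length method that reads each sorted cell in its own well. The cells came from 4 reporter lines on a C57Bl6/J background, PdgfrbGFP (46.2% of the cells), Acta2GFP (34.4%), PdgfraGFP (13.8%) and Cspg4dsRED (5.53%), each with a fluorescent reporter driven by the gene in its name (a histone-bound, nuclear GFP in PdgfraGFP). No line was treated, the sorted cells were CD31-negative, the gates differed between lines, and elastase was added when the Acta2GFP tissue was dissociated. The labels name no mouse, so the reporter line was taken as the replicate, and line, gate, mouse and dissociation cannot be told apart. The 1307 fibroblasts were clusters 1 (29.3% of all cells), 2 (7.96%), 5 (25.8%), 6 (2.73%, 45 cells) and 7 (13.5%) of the labels. The remaining cells were the mural cells and muscle cells grouped with them: cluster 3 (vascular smooth muscle cells, 8.57%), cluster 4 (pericytes, 8.63%) and cluster 8 (interstitial smooth muscle cells, 3.40%, 56 cells).

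The 9 plates had medians of 113721 to 725043.5 counts on genes per cell. The labels were set against marker genes: the summed level of 5 fibroblast markers was 6174 to 8167 counts per 500000 in the fibroblasts of the 4 lines and 1036 to 2045 in the mural cells of 3 lines, and the summed level of 8 mural markers was 194.3 to 311.3 against 6990 to 9469. The 4 genes listed as markers of fibroblasts at the crypt apex summed to 3736 in cluster 2 and to 42.3 to 574 in the other fibroblast clusters. The authors built the clusters from these same counts, so no test between clusters is independent of how they were made.

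Small leucine-rich proteoglycans are secreted proteins with a curved core of leucine-rich repeats. Most carry chondroitin, dermatan or keratan sulfate chains, bind collagen fibrils and govern their thickness and spacing, and several bind growth factors such as TGF-beta. Decorin (*Dcn*) and lumican (*Lum*) are widely used to mark fibroblasts.

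Several of the genes are neighbours in the genome (GRCm38). *Ecm2*, *Aspn*, *Omd* and *Ogn* lie in that order within 119.7 kb of chromosome 13, at chr13:49504810-49624501, and all are spanned by *Cenpp* on the other strand, which shares 7 exon bases with *Aspn* and none with the others. *Dcn* and *Lum* lie within 93.1 kb of chromosome 10, *Prelp* and *Fmod* within the chromosome 1 interval chr1:133910304-134048277, *Podn* on chromosome 4 and *Bgn* on chromosome X. The antisense gene *Gm15851* covers 350 of the 3615 exon bases of *Prelp*. Whether the counting used strand is not given in the sources used here, so the counts of *Prelp* carry that uncertainty.

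Levels are given as counts per 500000 counts on genes, averaged over the cells of a line and then over the lines with at least 10 cells, with the SD over lines. *Dcn*, whose protein wraps collagen fibrils, was highest in cluster 5 at 3458 ± 686.5 (SD, n = 4 lines), at 2434 ± 558 (n = 3) in cluster 7 and at 2373 ± 367.1 (n = 3) in cluster 1. The lines of cluster 7 overlapped those of both others, the lines of cluster 5 lay above those of cluster 1, and the next in the order, cluster 4 at 694 ± 635 (n = 2), lay below all of them. *Lum*, a keratan sulfate partner of collagen, had the same leading order, at 1333 ± 392.6 in cluster 5, 833 ± 197.2 in cluster 7 and 692 ± 178.2 in cluster 1. Biglycan (*Bgn*), the closest relative of decorin, was the most even, from 2271 ± 617 (n = 3) in cluster 1 to 586 ± 88.3 (n = 3) in cluster 3, and only the step from cluster 4 to cluster 3 separated the lines.

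The other members peaked elsewhere. Osteoglycin (*Ogn*), a small relative that influences fibril growth, was highest in cluster 6 at 1415 ± 251.1 (n = 2), above the 700 of the single line that held cluster 8 and the 417.1 ± 84.1 (n = 3) of cluster 7, with the lines of these 3 clusters apart. Podocan (*Podn*) was highest in cluster 8 at 795 (1 line), followed by cluster 2 at 494 ± 158.4 (n = 3). Asporin (*Aspn*), which has an aspartate-rich start and binds TGF-beta and collagen, lay between 302.1 and 572 in 7 of the 8 clusters and at 10.6 ± 12.4 (n = 3) in cluster 2. *Ecm2*, a leucine-rich matrix gene next to *Aspn*, was at 155.7 ± 19.3 (n = 3) in cluster 7 and at 3.85 ± 3.83 (n = 3) in cluster 2. *Prelp*, which links basement membrane to fibrils, ranged from 620 ± 240 (n = 2) in cluster 6 to 144.2 ± 101.5 (n = 3) in cluster 2.

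**Figure D1:**
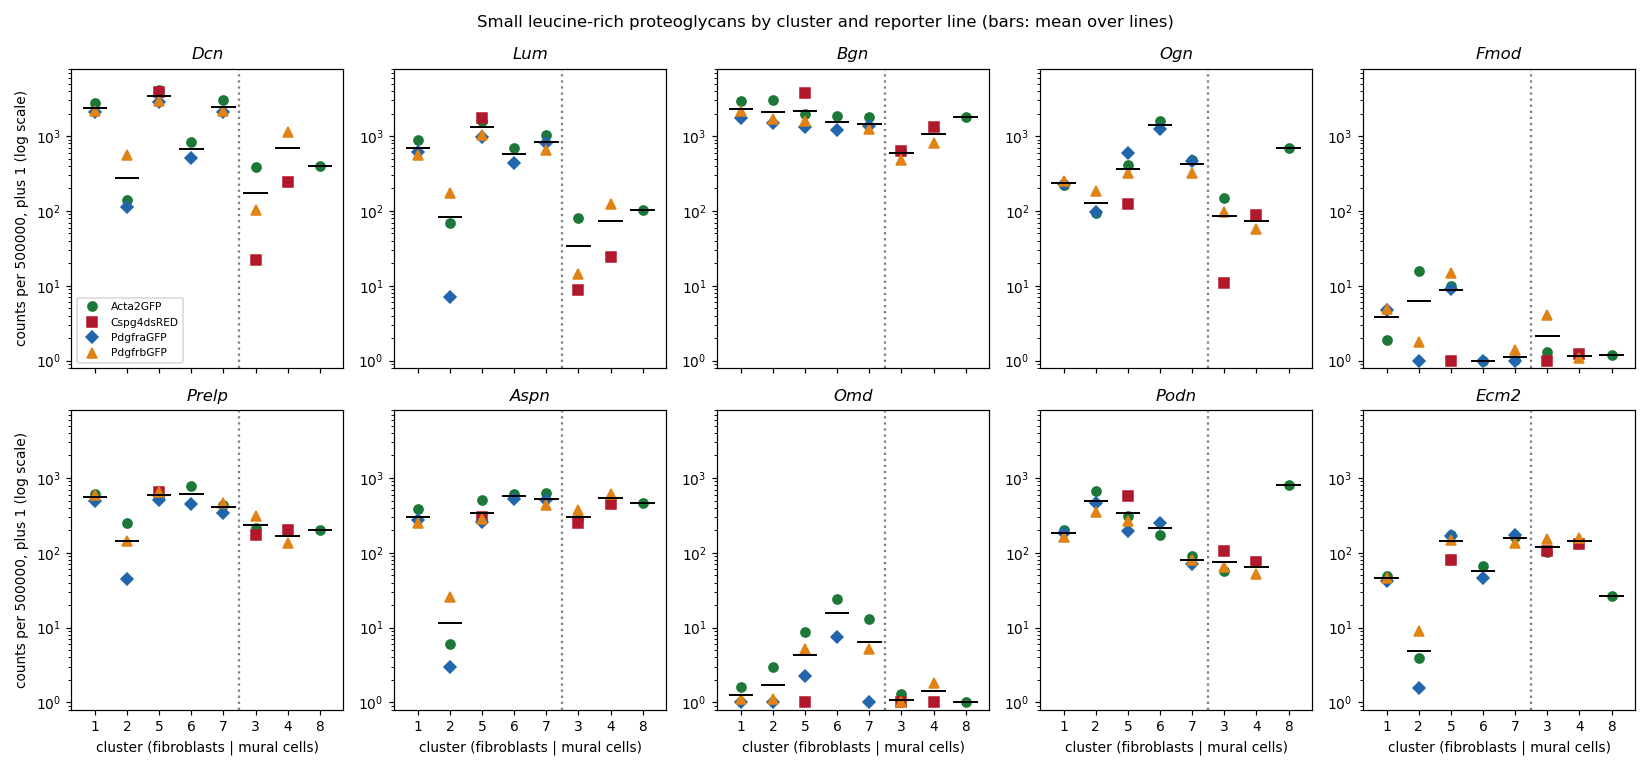
Level of each gene (vertical axis, counts per 500000 plus 1, log scale) in each cluster (horizontal axis, fibroblasts left and mural cells right of the dotted line), with a point for each reporter line with at least 10 cells and a bar for their mean. *Dcn* and *Lum* sit high in clusters 1, 5 and 7, *Aspn* and *Ecm2* drop in cluster 2, *Ogn* peaks in cluster 6 and *Podn* in cluster 8.

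Fibromodulin (*Fmod*) and osteomodulin (*Omd*), both keratan sulfate members of tendon and bone, were near the floor. *Fmod* reached at most 7.71 ± 5.72 (n = 4) in cluster 5, with a count in 15.8% of its cells. It had none in the 45 cells of cluster 6, which allows a share of up to 6.67% of such cells. *Omd* reached 14.7 ± 11.6 (n = 2) in cluster 6, with a count in 6 of 45 cells, and had none in the 56 cells of cluster 8, which allows up to 5.36%. These limits cover counting error only, since reads without molecular identifiers are not independent molecules. Fitted fold changes at such levels depend on the prior count.

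**Figure D2:**
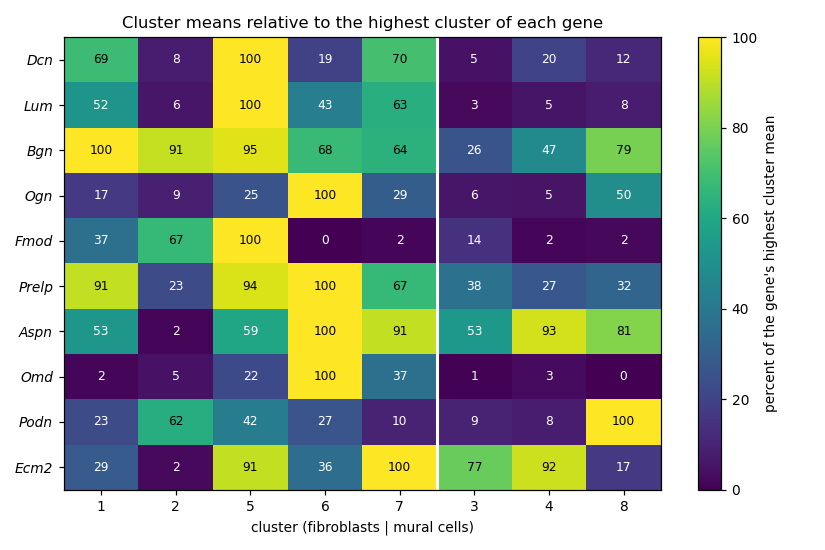
Cluster means of each gene as a percent of its highest cluster mean (colour and printed value), with clusters on the horizontal axis and genes on the vertical axis. *Dcn* and *Lum* are at 7.9% or less of their highest mean in cluster 2 and *Aspn* and *Ecm2* at 2.5% or less, while *Bgn* stays at 91.3% and *Podn* at 62.1%.

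To compare genes with each other, levels were divided by the exon length of the gene in kilobases. The summed level of the 10 genes on this scale was highest in cluster 5, at 2044 ± 434.9 (n = 4), and lowest in cluster 3, at 404.8 ± 81.4 (n = 3). Cluster 2 stood at 632 ± 197.4 (n = 3), below the 1489 ± 273.9 of cluster 1, the 1543 ± 292.8 of cluster 7 and the 1631 ± 370.6 (n = 2) of cluster 6. *Dcn* made up 27.4% ± 0.82 of the sum in cluster 1, 29.1% ± 1.7 in cluster 5 and 26.9% ± 1.9 in cluster 7. *Bgn* with 53.6% ± 10.0 and *Podn* with 19.04% ± 6.3 made up most of cluster 2. *Ogn* led cluster 6 with 34.01% ± 1.7, and *Aspn* led clusters 3 and 4 with 32.4% ± 6.1 and 33.8% ± 2.0. The lead depends on the length used: with the longest transcript in place of all exons, *Bgn* led all 8 clusters, from 27.9% in cluster 7 to 70.04% in cluster 2. In cluster 6 it then had 28.7% against 27.8% for *Ogn*, and in clusters 3 and 4 it had 41.5% and 44.1%.

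**Figure D3:**
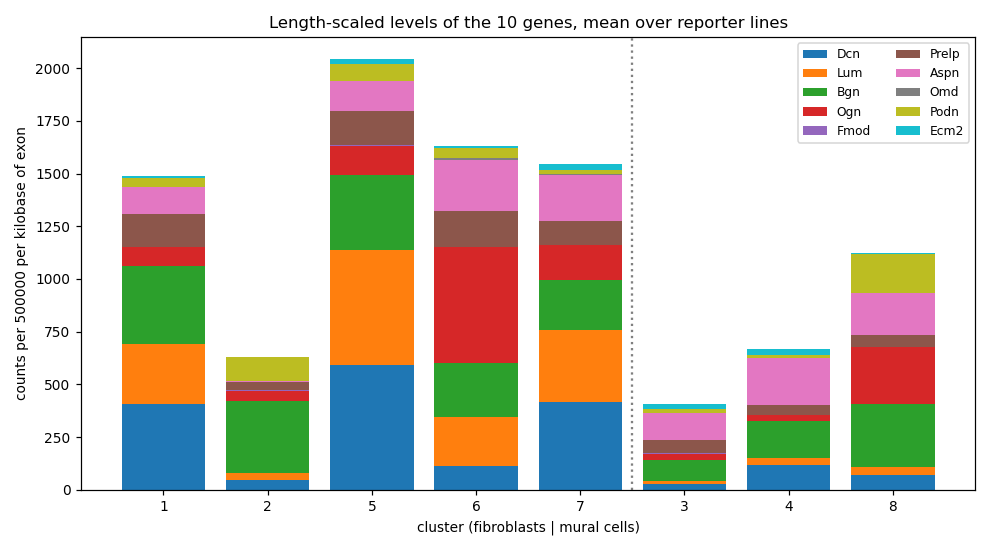
Stacked levels of the 10 genes (vertical axis, counts per 500000 per kilobase of exon, mean over reporter lines) in each cluster, fibroblasts left and mural cells right of the dotted line. The stack is tallest in cluster 5 at 2044 and shortest in cluster 3 at 404.8, and the blue and orange parts for *Dcn* and *Lum* are thin in cluster 2.

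The first comparison asked which of the genes separate fibroblasts from mural cells. *Dcn*, *Lum* and *Prelp* were higher in fibroblasts, and *Bgn*, *Ogn*, *Aspn*, *Podn* and *Ecm2* did not pass the test. *Dcn* stood at 2951 in Acta2GFP, 2853 in Cspg4dsRED, 1646 in PdgfraGFP and 2365 in PdgfrbGFP fibroblasts, and at 418.1, 138.5 and 687 in the mural cells of Acta2GFP, Cspg4dsRED and PdgfrbGFP. Every fibroblast value lay above every mural value. The log2 fold change of *Dcn* was 2.74 (SE 0.51, adjusted p = 0.0129).

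*Lum* differed more, with 1039, 1219, 557 and 739 in the fibroblasts of the same 4 lines and 92.6, 15.98 and 74.2 in the mural cells of the 3 lines. The groups did not overlap, and the log2 fold change was 4.05 (SE 0.61, adjusted p = 0.00462). *Prelp* stood at 513.4, 583, 374.7 and 569 in fibroblasts and at 203.5, 187.02 and 217.6 in mural cells, again without overlap, with a log2 fold change of 1.42 (SE 0.28, adjusted p = 0.0163). These are adjusted p-values of edgeR's quasi-likelihood test over counts summed per line, which called 6.57% of 19173 genes (3.21% higher and 3.36% lower in fibroblasts), and 3 of the 10 members, all higher.

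*Bgn* was also higher in fibroblasts in 3 of 3 lines that held both classes, at 1473 to 3196 against 689 to 1362, with a log2 difference of 1.12 (SE 0.34, adjusted p = 0.0886). With the line as a block, *Bgn* had a log2 difference of 1.27 and an adjusted p of 0.0448, and *Dcn*, *Lum* and *Prelp* stayed called. The members called were then 4, while all genes called fell from 1259 to 590 (3.08%). *Aspn* (log2 difference -0.16, SE 0.31) and *Ecm2* (-0.41, SE 0.31) were higher in fibroblasts in 1 of 3 lines. *Podn* stood at 242.5 in the fibroblasts and 527 in the mural cells of Acta2GFP, and at 200.1 against 71.7 in PdgfrbGFP, and *Ogn* at 354.3 against 486 and at 297.5 against 78.4 in the same lines. Of the 56 cells of cluster 8, in which both genes were high, 52 were Acta2GFP cells.

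The calls depended on the lines in the fit, for the members as for all genes. Without PdgfrbGFP no member was called, beside 1.81% of all genes, and 5 members had an unadjusted p under 0.05, as many as with all lines. *Lum* then had an adjusted p of 0.0563 and *Dcn* of 0.0663. *Dcn* was also lost without Acta2GFP (adjusted p = 0.0720), where *Ogn* was called, and *Prelp* without any 1 of Acta2GFP, Cspg4dsRED and PdgfrbGFP and with plates in place of lines. The median log2 fold change of the 10 members was 1.27 beside -0.028 over all genes tested.

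**Figure D4:**
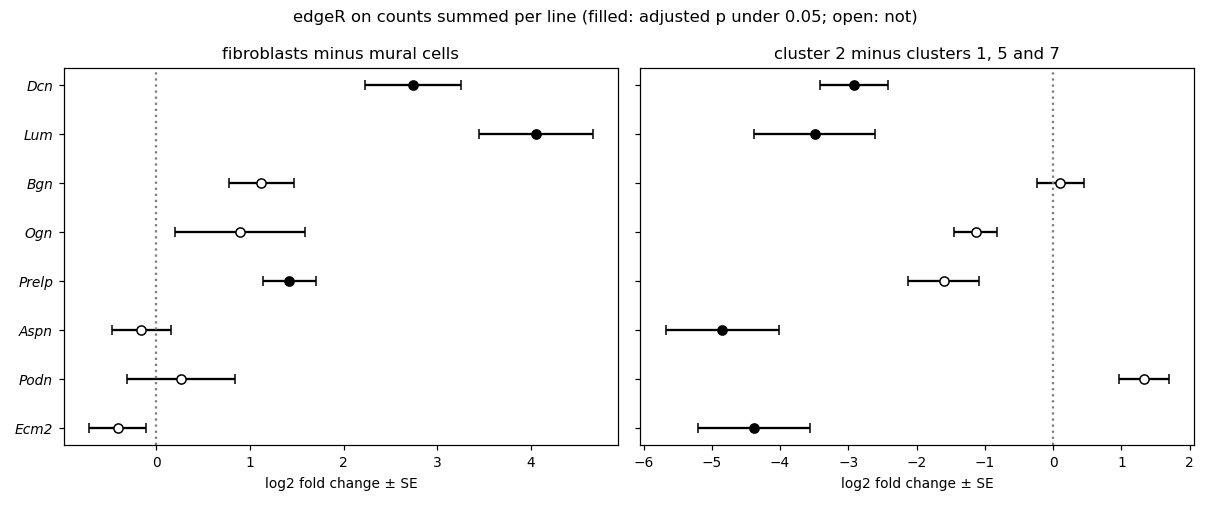
Log2 fold changes with their SE (horizontal axis) of the 8 genes above the floor, for fibroblasts minus mural cells on the left and cluster 2 minus clusters 1, 5 and 7 on the right. Filled points have an adjusted p under 0.05: *Lum* lies farthest right on the left panel at 4.05, and *Aspn* farthest left on the right panel at -4.85.

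Mural cells held some *Dcn* and *Lum* counts in most wells, and the levels differed between cells and clusters. The median mural cell had 122.5 counts per 500000 of *Dcn* and 7.51 of *Lum*, while the highest 10% of mural cells lay above 1633 and 180. These high cells were mostly pericytes for *Dcn* (94.1%, where pericytes were 41.9% of mural cells), and for *Lum* 58.8% were pericytes and 35.3% cells of cluster 8. The median *Dcn* level was 840 in pericytes, 34.7 in vascular smooth muscle cells and 226.99 in cluster 8. Within the plates, a mural cell's *Lum* level went along with the summed *Lum* counts of wells in its row and its column. The rank correlation averaged 0.45 over 6 plates, from 0.16 to 0.88, where the highest value came from the plate colon_073s with 10 mural cells. Without that plate, a choice made after seeing the data, it averaged 0.37, from 0.16 to 0.52. For *Dcn* the mean was 0.22 with all plates and 0.14 without it, from -0.065 to 0.40. The other 8 genes had means of -0.17 to 0.25 with all plates (*Omd* over 4) and of -0.092 to 0.19 without it. These are descriptions of mural cells of 3 clusters that share libraries and depth, and the part of shared rows and columns in the mural levels was not tested. Within plates that had at least 10 cells of each class, mural *Lum* was 1.31% to 15.6% of the fibroblast level in 6 of 6 plates, and mural *Dcn* 4.85% to 38.3%. Mural *Prelp* was 27.2% to 54.1% of the fibroblast level in 5 of the 6 plates and 138.6% in the PdgfrbGFP plate colon_073s, at 809 in 10 mural cells against 583 in fibroblasts.

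The second comparison set cluster 2, the *Tnc*-high, *Cd34*-low fibroblasts that the study places at the crypt apex, against the large clusters 1, 5 and 7. *Aspn*, *Ecm2*, *Dcn* and *Lum* were lower in cluster 2, *Bgn* did not pass the test, and *Podn* was higher in 3 of 3 lines without passing the test. *Aspn* stood at 5.05 in Acta2GFP, 1.95 in PdgfraGFP and 24.9 in PdgfrbGFP cells of cluster 2. In clusters 1, 5 and 7 it stood at 495 in Acta2GFP, 288.4 in PdgfraGFP, 288.7 in PdgfrbGFP and 303.9 in Cspg4dsRED. The groups were far apart, and *Aspn* was lower in 3 of 3 lines, with an edgeR log2 fold change of -4.85 (SE 0.83, adjusted p = 0.00862).

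*Ecm2* followed its neighbour, at 2.94, 0.55 and 8.04 in cluster 2 of Acta2GFP, PdgfraGFP and PdgfrbGFP against 118.2, 110.6 and 100.3 in clusters 1, 5 and 7 of the same lines. Its edgeR log2 fold change was -4.38 (SE 0.81, adjusted p = 0.0126). *Dcn* stood at 141.3, 111.4 and 567 against 3289, 2437 and 2483, a log2 fold change of -2.92 (SE 0.50, adjusted p = 0.00862). *Lum* stood at 68.97, 5.99 and 173.7 against 1147, 789 and 772, a log2 fold change of -3.49 (SE 0.88, adjusted p = 0.0437), and with the line as a block *Lum* was not called (-4.17, adjusted p = 0.0732). The PdgfrbGFP cells of cluster 2 held the highest value of each of the 4 genes. The groups did not overlap for any of them, nor for *Ogn* and *Prelp*, which did not pass the test. The share of all genes without overlap between groups was not counted in this or any other comparison.

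The edgeR test called 7.26% of 15893 genes in this comparison (3.5% higher and 3.76% lower in cluster 2) and 4 of the 10 members, all lower in cluster 2. Without Acta2GFP no member was called, beside 1.18% of all genes, and 7 members had an unadjusted p under 0.05, as many as with all lines. The adjusted p of *Dcn* was then 0.0850 and that of *Aspn* 0.102. *Lum* was also lost without Cspg4dsRED. With the line as a block 4 members were called too, with *Podn* in and *Lum* out, beside 5.73% of all genes. The median log2 fold change of the 10 members was -1.50 beside 0.0047 over all genes.

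The remaining members moved less. *Podn* stood at 666, 460.5 and 354.7 in cluster 2 of Acta2GFP, PdgfraGFP and PdgfrbGFP and at 200.7, 175.4 and 192.3 in clusters 1, 5 and 7, with a log2 difference of 1.33 (SE 0.36, adjusted p = 0.0590). With the line as a block *Podn* was called (1.66, adjusted p = 0.0172). In all, *Podn* was called in 6 of 10 alternatives, among them DESeq2 and plates in place of lines. The Cspg4dsRED cells of clusters 1, 5 and 7 were at 368.8, inside the range of cluster 2. *Ogn* (log2 difference -1.13, SE 0.31, adjusted p = 0.0639) and *Prelp* (-1.60, SE 0.52, adjusted p = 0.106) were lower in 3 of 3 lines and did not pass. *Bgn* had a log2 difference of 0.10 (SE 0.34), which was negative without Acta2GFP and with limma on means per cell.

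Cells of cluster 2 differed among themselves. The median cell had 46.2 counts per 500000 of *Dcn* and the highest 10% lay above 693. Over the cells of cluster 2, *Dcn* went along with *Lum* (mean rank correlation of 0.61 over 3 lines) and with *Aspn* (0.58). In clusters 1, 5 and 7 the means were 0.25, 0.38 and 0.21 for *Dcn* with *Lum*, which had 0.81 in cluster 3, and 0.05, -0.01 and 0.01 for *Dcn* with *Aspn*. The cells of a line share plates and depth. Of 16 genes known to be induced by tissue dissociation, 14 were called higher in cluster 2, beside 3.5% of all genes. Their summed level was 11920 to 18647 counts per 500000 in the 3 lines of cluster 2 against 1778 to 7402 in clusters 1, 5 and 7. The part of dissociation in these differences was not tested. Epithelial markers summed to 7.00 in cluster 2 and to 13.6 to 26.7 in clusters 1, 5 and 7.

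The sequences upstream of the start are shown for 3 of the chromosome 13 neighbours: *Aspn* and *Ecm2*, which were called lower in cluster 2, and *Ogn*, which was lower there in 3 of 3 lines without passing the test. The 250 bases before the RefSeq start (GRCm38.p6) were read on each gene's own strand for the 8 members that have an entry, the 3 shown being on the plus strand, and *Dcn* and *Lum* have none in the table used. Capitals mark a match on either strand to the letters of a TATA box, TATAAA, or to those of a GC box. An AP-1 site was searched too and is in none of the 3.
Aspn, chr13:49544193-49544442: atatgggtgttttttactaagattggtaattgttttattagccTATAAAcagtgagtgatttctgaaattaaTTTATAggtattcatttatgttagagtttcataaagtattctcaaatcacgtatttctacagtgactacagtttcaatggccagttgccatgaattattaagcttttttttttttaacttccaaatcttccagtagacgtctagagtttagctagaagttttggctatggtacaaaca
Ecm2, chr13:49504560-49504809: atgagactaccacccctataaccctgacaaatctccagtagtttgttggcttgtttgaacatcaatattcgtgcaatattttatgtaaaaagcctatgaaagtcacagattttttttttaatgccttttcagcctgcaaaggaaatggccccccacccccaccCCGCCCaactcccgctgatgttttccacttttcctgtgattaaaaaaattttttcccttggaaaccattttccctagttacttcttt
Ogn, chr13:49607765-49608014: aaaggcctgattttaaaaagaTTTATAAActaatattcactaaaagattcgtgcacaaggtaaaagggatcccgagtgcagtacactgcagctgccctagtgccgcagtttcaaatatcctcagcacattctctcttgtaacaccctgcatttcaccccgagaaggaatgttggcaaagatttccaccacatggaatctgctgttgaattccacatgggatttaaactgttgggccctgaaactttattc
The TATA box letters occur at 2 places in *Aspn*, at 2 overlapping places in *Ogn* and at none in *Ecm2*.

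The GC box searched was GGGCGG, which occurs at 1 place in *Ecm2*. Of 32817 promoters of the same length, 12.4% hold the TATA box letters and 32.7% those of the GC box.

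The letters of the AP-1 site were TGANTCA, held by 6.8% of the same promoters. *Omd*, the chromosome 13 neighbour not shown, was near the floor and lower in cluster 2 in 3 of 3 lines without passing the test. Its window held none of the letters searched. The matches are letters in a window, and no use of them was measured.

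Taking the 5 fibroblast clusters in 1 fit, *Dcn* (adjusted p = 0.000663), *Aspn* (0.00122), *Ogn* (0.00156), *Podn* (0.00278), *Ecm2* (0.00285) and *Lum* (0.0216) differed among clusters by edgeR's F test, 6 of 10 members beside 9.31% of 18924 genes. *Prelp* (0.0763) and *Bgn* (0.628) did not pass. Without Acta2GFP none of the 6 was called, beside 1.56% of all genes, and their adjusted p ran from 0.0555 (*Dcn*) to 0.358 (*Lum*). In that fit 7 members had an unadjusted p under 0.05, against 8 with all lines. *Podn* was also lost without PdgfrbGFP. *Ogn* stood at 1592 in the 10 Acta2GFP cells and at 1237 in the 26 PdgfraGFP cells of cluster 6, and at 92.95 to 592 in the lines of the other fibroblast clusters, with no overlap. The 8 mural markers summed to 1289 (713 to 1866 over lines) in cluster 6 and to 112.9 to 313.1 in the other fibroblast clusters. In cluster 6 the sum was mostly *Acta2* (908.5), *Tagln* (220.2) and *Kcnj8* (103.1), with *Myh11* at 50.7. *Rgs5* (3.01), *Notch3* (0.25), *Mcam* (0.88) and *Des* (2.53) were lower there than in cluster 1. The part of these markers in the *Ogn* level was not tested. *Podn* was lowest in cluster 7, at 89.4, 70.997 and 78.4 in Acta2GFP, PdgfraGFP and PdgfrbGFP, and the ranges of its lines lay below those of clusters 1, 2, 5 and 6.

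*Dcn* and *Lum* in cluster 6 stood apart from each other: *Lum* was at 568.2 ± 180.5, overlapping the lines of cluster 1, and *Dcn* at 670 ± 218.5, below the lines of clusters 1, 5 and 7. Cluster 7, which is low in *Tnc*, was set against cluster 1 in the same fit, and edgeR called none of the 10 members beside 0.909% of all genes (0.333% higher and 0.576% lower in cluster 7). DESeq2 called none either, beside 4.21% of all genes, and 4 members had an unadjusted edgeR p under 0.05, as had 1860 of the 18924 genes. *Ecm2* had the largest log2 difference among the 8 members above the floor, 1.95 (SE 0.67, adjusted p = 0.267), at 134.7 to 172.5 in cluster 7 against 40.5 to 48.5 in cluster 1, where the lines did not overlap.

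Interstitial smooth muscle cells came from 1 line with enough cells, Acta2GFP, which also held vascular smooth muscle cells. *Podn* stood at 795 in the 52 Acta2GFP cells of cluster 8 and at 56.9, 105.4 and 63.2 in Acta2GFP, Cspg4dsRED and PdgfrbGFP cells of cluster 3. Its edgeR log2 fold change was 2.96 (SE 0.59, adjusted p = 0.0342), 1 of 9 members tested beside 1.04% of 16328 genes (0.398% higher and 0.643% lower in cluster 8). The p-value rests on a single sum of cluster 8, which is assumed to vary like the 3 sums of cluster 3 and the 2 of cluster 4 that gave the spread. With the line as a block *Podn* was not called (log2 difference 3.11, adjusted p = 0.161) and *Bgn* was (log2 fold change 1.60, adjusted p = 0.0438). *Ogn* stood at 700 in cluster 8 and at 145.8, 9.89 and 95.4 in cluster 3, and *Bgn* at 1802 against 633, 641 and 484, and neither passed. Without Cspg4dsRED *Bgn*, *Ogn* and *Ecm2* were called beside *Podn*, and without PdgfrbGFP *Ogn* was, beside 4.23% and 2.55% of all genes. In each of these fits pericytes too had 1 sum, and the spread came from the 2 sums of cluster 3 alone. *Ecm2* went the other way, at 25.7 against 102.7 to 151.5, without passing (adjusted p = 0.232).

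Between pericytes and vascular smooth muscle cells, edgeR called none of 9 members beside 0.668% of all genes (0.263% higher and 0.404% lower in pericytes). DESeq2 called none either, beside 5.92% of all genes, and 4 members had an unadjusted edgeR p under 0.05, as had 1778 of the 16328 genes. *Dcn* stood at 245.2 and 1143 in the Cspg4dsRED and PdgfrbGFP pericytes and at 21.1 and 103.2 in the vascular smooth muscle cells of these lines, and at 390.7 in those of Acta2GFP. Its log2 difference was 2.05 (SE 0.88, adjusted p = 0.426). With the line as a block the log2 fold change of *Dcn* was 3.45 (adjusted p = 0.00219), which was called. Without Cspg4dsRED *Dcn* was also called, at 2.25, where pericytes and cluster 8 had 1 sum each and the spread came from the 2 sums of cluster 3 alone. The 5 fibroblast markers summed to 1719 and 2168 in the pericytes of the 2 lines and to 284.9 to 613 in vascular smooth muscle cells. In pericytes the sum was mostly *Col3a1* (1010), *Col1a2* (447.1) and *Col1a1* (427.9). *Pdgfra* stood at 16.1 in pericytes and 4.47 in vascular smooth muscle cells, and *Cd34* at 42.7 and 28.3. The 16 dissociation genes summed to 2398 and 2533 against 8457 to 14842, with 5 called lower in pericytes, beside 0.404% of all genes. The part of either in the *Dcn* difference was not tested. *Aspn* stood at 449.3 and 614 in pericytes and at 252.6 to 376.4 in vascular smooth muscle cells. *Bgn* stood at 1332 and 821 in pericytes and at 484 to 641 in vascular smooth muscle cells. For both genes the lines did not overlap, and neither passed the test.

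The reporter lines were compared within cluster 1 and within cluster 5, with plates of at least 10 cells as replicates, which may share a mouse. In cluster 1, edgeR called none of 9 members beside 0% of 15700 genes, with 694 genes and 1 member, *Lum*, at an unadjusted p under 0.05, and DESeq2 called 0.745% of the 15039 genes it gave a p-value and no member. *Lum* stood at 873 and 919 in the 2 Acta2GFP plates, at 550.0 and 717 in the PdgfraGFP plates and at 412.9 to 621 in the 4 PdgfrbGFP plates. In cluster 5, edgeR called none of the 10 members beside 0% of 15451 genes for Acta2GFP against PdgfrbGFP, with 491 genes and 4 members at an unadjusted p under 0.05. DESeq2 called 56 of 14882 genes (0.376%) and 1 member, *Aspn*.

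*Aspn* stood at 467.5 and 529 in the 2 Acta2GFP plates of cluster 5 and at 223.4, 246.98, 248.2 and 347.5 in the 4 PdgfrbGFP plates. The lines did not overlap, and the log2 difference was 1.18 (SE 0.27) with an edgeR adjusted p of 1.00 and a DESeq2 adjusted p of 0.0402. In cluster 1 the Acta2GFP plates were at 378.7 and 391.1 and the other 6 plates at 207.4 to 310. Median counts on genes of the plates in cluster 5 ran from 113721 to 1082283, and the PdgfrbGFP plate colon_686s, the deepest, with 11 cells, had the lowest *Dcn* of cluster 5, at 1303 against 2737 to 4691 in the other 7 plates.

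**Figure D5:**
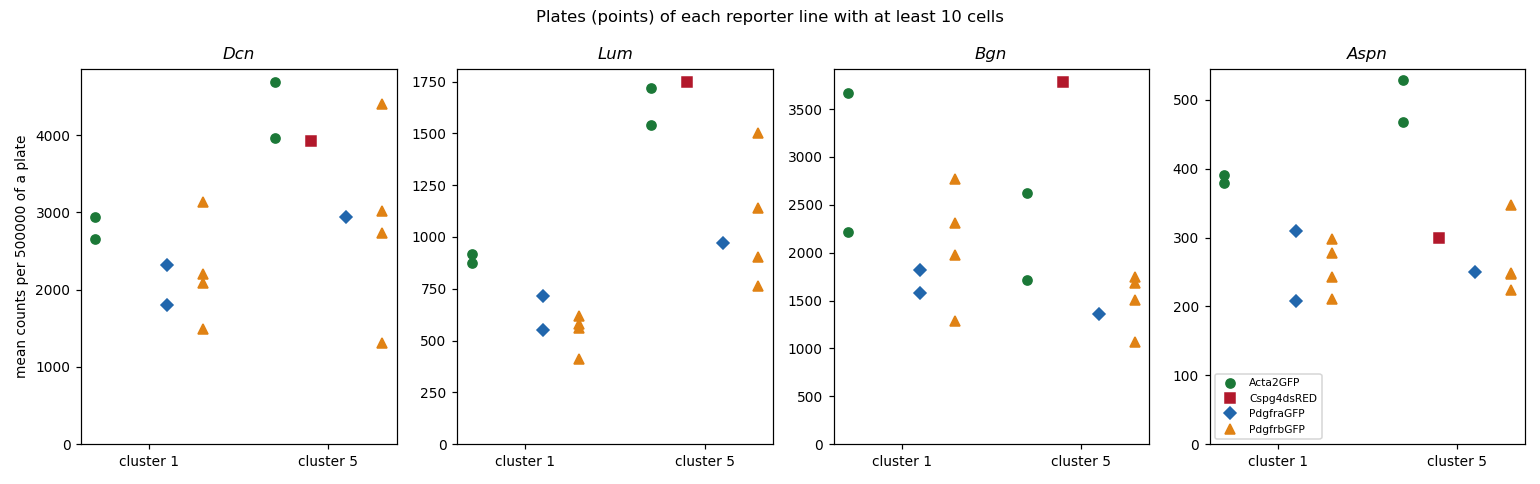
Mean level of *Dcn*, *Lum*, *Bgn* and *Aspn* (vertical axis, counts per 500000) in each plate with at least 10 cells (points, coloured by reporter line) in clusters 1 and 5. The green Acta2GFP plates of *Aspn* lie at 378.7 and 391.1 in cluster 1 and at 467.5 and 529 in cluster 5, above the other plates.

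Genes that work with these proteoglycans were read from lists of names. Of 14 collagen and fibril genes, 12 were higher in fibroblasts than in mural cells and none lower, beside 3.21% and 3.36% of all genes, with *Col14a1* (log2 fold change 4.13, SE 0.38, adjusted p = 0.000466), a collagen of fibril surfaces, and *Col1a1* (2.82, SE 0.28, adjusted p = 0.000567), a chain of type I collagen, in front. The list had a median of 1.93 beside -0.028 over all genes. In cluster 2 against clusters 1, 5 and 7, 3 of the 14 were higher, led by *Col6a1* (1.53) and *Col6a2* (1.44), chains of the beaded type VI collagen, and 2 were lower, *Col14a1* (-5.03) and *Lox* (-3.08), the collagen cross-linking enzyme, beside 3.5% and 3.76% of all genes.

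Of 24 tested genes that build or sulfate the glycosaminoglycan chains, none was called by edgeR between fibroblasts and mural cells, 8 had an unadjusted p under 0.05, as had 3878 of the 19173 genes, and DESeq2 called 5 beside 15.8% of all genes. In cluster 2, 2 of 23 were higher and 2 lower, beside 3.5% and 3.76% of all genes. *Chst2* (3.46) and *Chst1* (2.80), sulfotransferases that act on keratan sulfate and related chains, were higher, and *Ust* (-6.06) and *Chst12* (-1.75), which sulfate dermatan and chondroitin chains, were lower. *Chst1* stood at 74.2 counts per 500000 in cluster 2 and 120.8 in cluster 6, against 17.1 in cluster 1 and 0.93 and 2.18 in clusters 5 and 7. Of 13 ligands and receptors, 3 were higher in fibroblasts, beside 3.21% of all genes, among them *Egfr* (3.33) and the endocytic receptor *Lrp1* (2.10). In cluster 2, 2 of the 13 were higher, *Met* (5.51) and *Bmp4* (0.97), and 2 lower, *Tgfb3* (-2.57) and *Lrp1* (-2.06), beside 3.5% and 3.76% of all genes.

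Of 22 tested other proteoglycans, 2 were higher in fibroblasts, *Vcan* (4.07) and *Hspg2* (1.83), and 1 lower, *Agrn* (-1.65), beside 3.21% and 3.36% of all genes. In cluster 2, 2 of 19 were higher, *Col18a1* (2.23) and *Sdc4* (1.75), and 3 lower, with *Gpc3* (-5.16) and *Tgfbr3* (-3.69) in front, beside 3.5% and 3.76% of all genes. These values are log2 fold changes by edgeR. The other 8 genes of the family were at most 49.2 counts per 500000 in a cluster, a value of *Tsku* in cluster 7. Between fibroblasts and mural cells, edgeR called none of the 4 tested. Of these 4, 2 had an unadjusted p under 0.05, as had 3878 of the 19173 genes, and DESeq2 called 2, beside 15.8% of all genes.

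The genes whose levels ran most alike over the 21 means of a line and a cluster were taken from 11020 genes by Pearson's correlation of log2 levels, as a description. *Dcn* was nearest to *Pcsk5* (r = 0.95), a protease, and to *Lum* (0.94), and *Lum* to *Dcn* and *Mtch1* (0.93). *Prelp* was nearest to its antisense partner *Gm15851* (0.96) and *Mtch1* (0.88). *Aspn* was nearest to *Cryab* (0.93), a small heat shock protein, and *Syn3* (0.90), and *Ecm2* to *Gm9780* (0.90) and *Carhsp1* (0.90). *Bgn* was nearest to *Scpep1* (0.88) and *Ctsb* (0.87), *Podn* to the thrombin receptor *F2r* (0.83) and *Gm11149* (0.83), and *Ogn* to *Dbp* (0.83) and *Mast2* (0.83). *Omd* (*Fam180a*, 0.84, and *Snx29*, 0.78) and *Fmod* (*Sdk2*, 0.68, and *Ptn*, 0.67) had their nearest genes at low levels. Between members, *Aspn* and *Ecm2* had a Pearson r of 0.90 over the 21 means (Spearman's rho 0.52), *Ogn* and *Ecm2* of 0.12 (0.16), and *Podn* and *Ecm2* of -0.65 (-0.57). Over the 15 fibroblast means alone, the values were 0.93 (0.64), 0.60 (0.63) and -0.63 (-0.48). The means share lines and plates.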

How the data were processed

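The authors sorted single cells into 384-well plates, made SmartSeq2 libraries, sequenced 50-base reads, aligned them to GRCm38 with TopHat2 and used featureCounts, and the deposited table of 46609 rows holds raw whole-number counts. Tools named in the submitters' processing notes include Bowtie, Bowtie2, Subread and bcl2fastq. The strand setting is not given in the sources used here. Cells with few counts or genes, and cells with very many genes as potential doublets, had been removed by the authors, and no doublet caller was run here.

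The 92 ERCC spike-in rows (1.36% of counts) were left out. Of 46517 genes, 46005 matched a GENCODE vM21 symbol, and coordinates are 1-based. Raw counts were summed per line and class (at least 10 cells) and tested with edgeR 4.0.16 (quasi-likelihood, TMM, filterByExpr, R 4.3.3) with Benjamini-Hochberg adjustment over all genes at 0.05. The SE of a log2 fold change was taken as its size over the root of F. The p-values measure the spread between lines or plates. DESeq2 1.42.0, limma 3.58.1 on log2 of the mean plus 1, other filters, blocks and sums were alternatives, and the fits were tested on simulated data. With changed genes drawn from all tested genes, many were missed. More were found once the draw was limited to genes with a mean of at least 100 counts and a dispersion up to the median, a limit added after the first result was seen, and the fits were left as they were. A difference that did not pass may thus be one these designs could not detect. Lines deviated together in the comparison of fibroblasts with mural cells (correlations of 0.15 to 0.17) and in cluster 7 against cluster 1 (0.12 to 0.17). The same held for pericytes against vascular smooth muscle cells (0.15 and 0.16) and, more weakly, for cluster 2 (0.085 to 0.12). The line is thus in part a pairing, which the p-values ignore unless a block is named. For shares of cells, counts were also thinned to 50000 per cell. The members and gene lists were chosen with earlier results of these data known. Named genes are the 10 members, in each list up to 2 called genes a direction, by size of log2 fold change, and for each member the 2 most alike genes.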

Additional observations from a re-analysis of the deposited data

Results flagged for a closer look

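Over the lines or plates of a group, 50 groups of 4 values were tested for a value far from the rest, and 4 were found, where chance gives about 5%. *Aspn* over clusters 1, 5 and 7 was highest in Acta2GFP, at 495 counts per 500000, with the other 3 lines at 288.4 to 303.9. *Podn* in the same clusters was highest in Cspg4dsRED, at 368.8 against 175.4 to 200.7 in the other 3 lines, from 26 cells. *Fmod* in cluster 1 was highest in the PdgfrbGFP plate colon_075s, at 8.99 against 0.63 or less in the other 3 plates, and *Omd* in cluster 5 in the PdgfrbGFP plate colon_686s, at 32.8 against 4.20 or less, from 11 cells.

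Differences between fibroblasts and mural cells ran opposite ways in the plates of 2 lines for 2 genes, and this contrast between lines was not tested. *Podn* was lower in the fibroblasts of both Acta2GFP plates, with a difference of -89.0 counts per 500000 in the plate nearer to 0, and higher in those of the 3 PdgfrbGFP plates with both classes. *Ecm2* was higher in the fibroblasts of both Acta2GFP plates and lower in those of the 3 PdgfrbGFP plates, where the difference nearest to 0 was -24.6. Mural cells of Acta2GFP were mostly cluster 8 (52 of 84 cells), which was high in *Podn* and low in *Ecm2*.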

How the results depend on the processing

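Replicates are lines, and calls of members and of all genes changed with the lines left in. Leaving out each line moved the members called between 0 and 3 for fibroblasts against mural cells. There 0 were called without PdgfrbGFP, beside 1.81% of all genes, and 3 without PdgfraGFP, beside 5.81%. For cluster 2 against clusters 1, 5 and 7 they moved between 0 and 5. There 0 were called without Acta2GFP, beside 1.18% of all genes, and 5 without PdgfrbGFP, beside 4.42%. Among fibroblast clusters 0 were called without Acta2GFP, beside 1.56%, where cluster 6 had 1 sum. For interstitial cells, and for pericytes without Cspg4dsRED or PdgfrbGFP, a group held 1 sum, so counts are left out here. In the cluster 2 comparison, 7 members were called without the low-count filter and 7 with limma, where all genes called were 1056 of 29766 and 1732 of 15893 against 1154. With DESeq2 and with plates in place of lines 6 members were called, beside 15.5% and 12.1% of all genes. In cluster 7 against cluster 1, 1 member (*Ecm2*) was called with plates in place of lines, beside 3.15% of all genes against 0.909%. For pericytes, 1 member (*Dcn*) was called without the filter and 1 with the line as replicate block, beside 1.85% and 1.04% of all genes against 0.668%. For interstitial cells, 4 were called without the filter, 2 with at least 3 cells per sum and 3 with plates, beside 1.84%, 1.29% and 3.49% of all genes against 1.04%. For Acta2GFP against PdgfrbGFP in cluster 5, DESeq2 called 1, beside 0.376% of all genes. The causes were not tested.

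With the line as a block, the members called were 4 for fibroblasts against mural cells, beside 3.08% of all genes, and 4 for cluster 2, beside 5.73%. In cluster 2 *Podn* was in and *Lum* out, and the correlations of the lines were lower there (0.085 to 0.12). Among fibroblast clusters 6 were called, beside 9.3%, and for cluster 7 against cluster 1 0 were called, beside 1.46%. All genes called differed by over 1.5 times from the value given in 43 of 79 alternatives. DESeq2 called 2966 genes between fibroblasts and mural cells where edgeR called 1259.

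No called member turned in direction, and 24 values of uncalled differences did, all with an adjusted p of 0.618 or more (log2 scale throughout, with *Fmod* and *Omd* near the floor). For fibroblasts against mural cells, leaving out each line moved *Aspn* from -0.36 to 0.087 (0.038 without PdgfraGFP) and *Podn* from -0.27 to 1.67 (-0.027 without PdgfrbGFP). For cluster 2, *Bgn* was -0.093 with limma and -0.33 without Acta2GFP, and *Fmod* -2.98 with the block, -0.28 with plates, -0.33 with limma and -3.43 to 1.63 over left-out lines. For pericytes, *Lum* ran from -0.39 to 3.32 and *Ogn* from -1.46 to 0.49 over left-out lines, with *Ogn* at 1.44 with the block and 0.41 with limma. For interstitial cells, *Prelp* was 0.073 with the block and 0.30 with at least 3 cells. For Acta2GFP against PdgfrbGFP, left-out plates moved *Fmod* from -4.76 to 1.61, *Prelp* from -0.065 to 0.25, *Omd* from -0.78 to 1.39, *Podn* from -0.011 to 0.45 and *Ecm2* to -0.23, and limma gave -0.028 for *Prelp* and 0.87 for *Omd*.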
